A study of Mus musculus with 6 samples.

Results

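The genes described here are 42 genes of the cell cycle, from the loading of replication origins to the separation of chromosomes in mitosis. They were taken as a list of symbols and matched to the gene IDs of a table of read counts, where each of the 42 symbols matched 1 of 55487 gene IDs. The counts come from RNA-Seq of rib cages dissected from mouse embryos at 16.5 dpc (days post coitum), with 3 control embryos (E420, E434 and E435) and 3 mutant embryos (E423, E433 and E440), each a library of its own. The mutants are labelled Col2-cre;Foxc1-/-;Foxc2-/- and lack Foxc1 and Foxc2, a pair of forkhead transcription factors, in cells in which the Col2 promoter has driven cre recombinase, that is in chondrocyte progenitors and their descendants. The labels call the controls wild type. The study describes the controls of its stained skeletons as embryos without the Col2-cre transgene. In the crosses given in its methods, each embryo received floxed alleles of Foxc1 and Foxc2 from its mother. The deletion depends on Col2-cre, whereas the RNA is from the whole rib cage, so that cycling cells of other lineages that keep both genes contribute to every value. In such bulk RNA, fewer cycling cells and less RNA per cycling cell cannot be told apart. The study's methods state that littermates were compared, but the labels give no litter. The p-values set the difference between the groups against the spread within the groups of these 6 embryos.

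A dividing cell loads the Mcm helicase onto its replication origins in G1, activates it and copies its DNA in S phase, and partitions the copies in mitosis. D-type cyclins with Cdk4 or Cdk6 and E-type cyclins with Cdk2 phosphorylate the retinoblastoma proteins and release E2F factors, which drive the genes of DNA replication. The DREAM and B-Myb complexes act through CHR elements, and NF-Y through CCAAT boxes, on the genes of G2 and mitosis. In the embryonic growth plate, proliferation of flattened columnar chondrocytes feeds the lengthening of the bone, and the cells leave the cycle as they become hypertrophic. The question put to these genes is whether their level in rib cage RNA differs between mutants and controls.

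Promoters of periodic cell cycle genes share a small set of sequence motifs, and counts of these are given first, ahead of the expression values. RefSeq promoters on GRCm38.p6 (250 bases before to 50 bases after the start) matched 34 of the 42 genes. Mcm4, Gins2, Ccnd1, Ccnd2, Ccne2, Ccna2, Aurkb and Kif20a were the 8 that did not match. Both strands were searched for the CHR element (TTTGAA or TTCGAA), the CCAAT box (CCAAT) and an E2F core (TTCCCGC, together with the variant TTCGCGC, the variant TTGCCGC and the variant TTGGCGC). Matches of different motifs overlapped 3 times, in 2 genes, Mcm7 and Ccnb1. The CHR element occurred in 11 of 14 G2 and mitosis genes (78.6%) and in 3 of 12 replication genes (25%), against 21.7% of all 27025 genes with a promoter in the table. The E2F core showed the opposite order, in 3 of 14 G2 and mitosis genes (21.4%) and 8 of 12 replication genes (66.7%), against 10.9% of all. The CCAAT box was in 13 of 14 G2 and mitosis genes (92.9%) and 9 of 12 replication genes (75%), against 41.1% of all. Over the 34 genes, 14 held a CHR element (41.2%), 25 a CCAAT box (73.5%) and 12 an E2F core (35.3%). The 150 bases before the start of 4 genes are shown 5′ to 3′ on the gene's strand, with matches of the 3 motifs in capitals, as examples of E2F cores in replication genes and of CCAAT boxes and CHR elements in G2 and mitosis genes. Cdc6 (chr11:98908001-98908150, plus strand) holds a lone E2F core, Mcm6 (chr1:128359706-128359855, minus strand) 4 E2F cores in 2 overlapping pairs and 2 CCAAT boxes, Ccnb2 (chr9:70421555-70421704, minus strand) 3 CCAAT boxes, and Top2a (chr11:99024190-99024339, minus strand) 4 CCAAT boxes and 3 CHR elements.
Cdc6: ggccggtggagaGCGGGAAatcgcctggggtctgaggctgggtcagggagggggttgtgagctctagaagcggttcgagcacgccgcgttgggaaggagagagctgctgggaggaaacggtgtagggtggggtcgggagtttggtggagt
Mcm6: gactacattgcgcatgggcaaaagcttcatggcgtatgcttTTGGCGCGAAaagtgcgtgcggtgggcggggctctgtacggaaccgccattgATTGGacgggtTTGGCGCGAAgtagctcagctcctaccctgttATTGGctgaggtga
Ccnb2: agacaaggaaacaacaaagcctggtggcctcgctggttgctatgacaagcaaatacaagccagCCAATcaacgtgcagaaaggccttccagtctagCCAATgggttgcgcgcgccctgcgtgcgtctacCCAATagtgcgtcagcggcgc
Top2a: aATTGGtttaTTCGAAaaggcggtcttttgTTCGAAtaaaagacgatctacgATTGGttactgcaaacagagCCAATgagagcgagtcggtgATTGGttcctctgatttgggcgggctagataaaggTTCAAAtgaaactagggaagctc
The 3 CCAAT boxes of Ccnb2, the partner cyclin of Cdk1 in mitosis, lie in the same orientation, and those of Top2a, which untangles DNA ahead of mitosis, lie in both orientations among CHR elements. The counts given for these 4 genes are for the 150 bases shown, and the full window of Ccnb2 also holds 2 CHR elements outside them. A match in letters is a description of the window and not a measured binding site.

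The libraries held between 37853988 and 47794799 counts. Foxc1 was lower in the mutants, at 23.1, 36.9 and 24.2 CPM (read counts scaled to the size of the library) in E420, E434 and E435 (controls) against 3.56, 9.61 and 3.51 CPM in E423, E433 and E440 (mutants). Foxc2 stood at 1.99, 4.83 and 3.22 CPM among controls against 0.649, 1.14 and 0.737 CPM among mutants. The groups did not overlap for either, although neither passed the limit of 0.1 on the adjusted p in edgeR (0.235 for Foxc1 and 0.239 for Foxc2). By DESeq2, run on the same counts, both passed it (adjusted p 9.63e-07 for Foxc1 and 2.07e-04 for Foxc2). E434 and E433 stood apart from the other libraries of their groups. E420 and E435 were far closer to each other, as were E423 and E440, than any other pair. Over 12552 genes with a mean of at least 100 expected fragments, the squared difference between E423 and E440 was 2.5 times counting error and that between E420 and E435 was 6.66 times, while the other 13 pairs lay between 51.9 and 280.2 times. The labels name 6 embryos, and each library was counted as its own replicate. The difference within the close pairs was above counting error, which does not tell whether it is biological or arises in library preparation. Results are also given with E434 and E433 left out and with each close pair summed to 1 library.

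No gene of the 42 passed the test between mutants and controls. Replication, G1 and mitotic genes were a little lower in mutants E423 and E440 and were mostly within or above the control range in mutant E433. All 42 were tested, with counts from 713 to 16440 per library. By edgeR's quasi-likelihood test with Benjamini-Hochberg adjustment over 26596 genes, 0 of 42 had an adjusted p under 0.1, where 0.0902% of all genes did. DESeq2 also called 0 of 42, where it called 4.34% of the genes to which it gave an adjusted p. The unadjusted p was under 0.05 for 1 of 42 (2.38%), against 10.6% of all genes tested. The lowest adjusted p was 0.412 by edgeR and 0.149 by DESeq2, both for Ccnd2. The 3 mutants lay below the 3 controls for 3 of 42 genes, Cdt1, Ccnd2 and Cdkn1b (7.14%), against 8.21% of all genes, and above them for 0 of 42, against 6.81% of all genes.

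Most of the list had the same sign, but the size was small and depended on single mutants. The fitted value was lower in mutants for 37 of 42 genes (88.1%), against 48.8% of all genes tested, with a median log2 fold change (mutant minus control) of -0.09 against 0.01 for all genes. The median was -0.041 without mutant E423 (29 of 42 lower), -0.039 without mutant E440 (31 lower) and -0.18 without mutant E433 (40 lower), and it lay between -0.10 and -0.067 without 1 control (37 lower each time). In the fit of all 6 libraries the value was within 0.1 of 0 for 23 genes, between 0.1 and 0.2 for 16 and above 0.2 for 3, Ccnd2, Ccne1 and Ccne2. The 5 genes with a higher value were Cdkn1a (0.13), Mki67 (0.09), Ccnd1 (0.07), Mcm7 (0.04) and Cenpf (0.02). Of the 42 95% intervals, which are not adjusted for the number of genes, 41 held 0, and the bounds ran from -0.65 to 0.50. A change of 1 either way on the log2 scale lay outside all 42 intervals, and a change of 0.5 outside 37 of them.

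**Figure D1:**
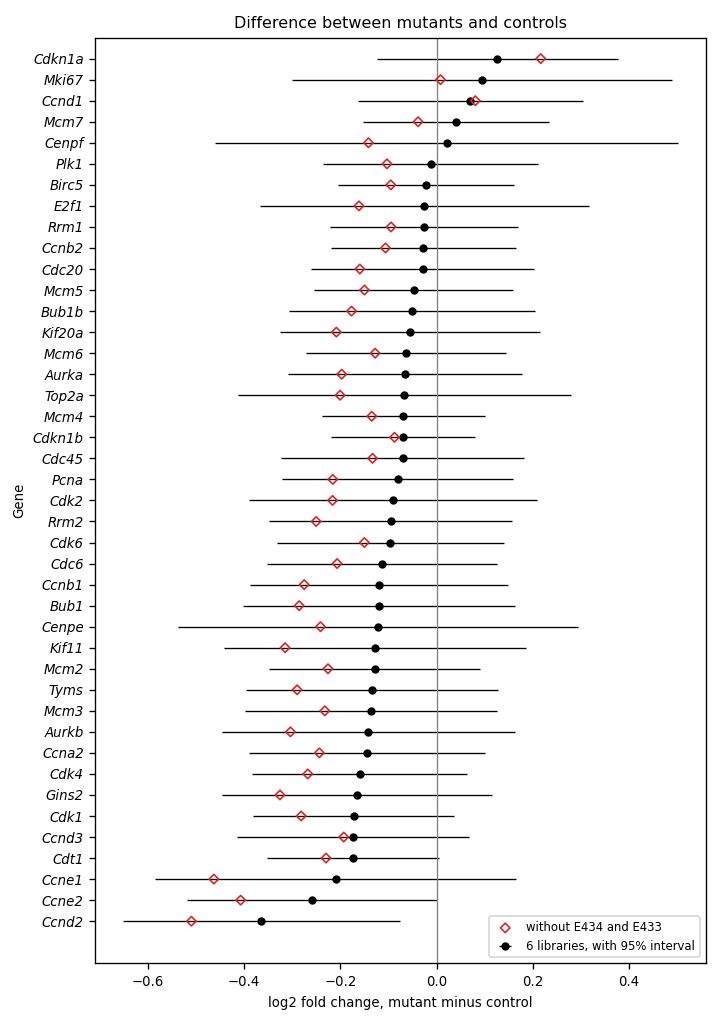
Log2 fold change (mutant minus control, x axis) of each of the 42 genes (y axis), as black points with 95% intervals from edgeR over 6 libraries and as red diamonds without E434 and E433. The interval of Ccnd2 (-0.65 to -0.08) is the 1 of 42 that does not hold 0, and all diamonds but those of Cdkn1a, Mki67 and Ccnd1 lie below 0.

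The values differed between mutants as well as between groups. The lowest of the 6 values was in E423 for 17 genes and in E440 for 21, that is in these 2 mutants for 38 of 42 genes. The highest was in the third mutant, E433, for 26 of 42. The median log2 ratio of the 42 genes to the control mean, taken per library, was 0.02 (E420), -0.05 (E434) and 0.03 (E435) for controls and -0.20 (E423), 0.08 (E433) and -0.19 (E440) for mutants. E433 was above all controls for 26 genes, within their range for 12 and below it for 4. E423 and E440 were both below all controls for 35 genes and both above them for 1, Cdkn1a. Compared directly, E433 was higher than E423 for 41 of 42 genes and higher than E440 for 41, while the squared difference between E423 and E440 over the 42 genes was 1.73 times counting error. The coefficient of variation over 6 libraries had a median of 8.98% over the 42 genes (range 3.09% to 19.3%), against 10.4% over the 11138 genes with a mean of at least 10 CPM. Within the controls it was 5.07% (7.81% over the 11138 genes), and within the mutants 10% (9.54%).

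**Figure D2:**
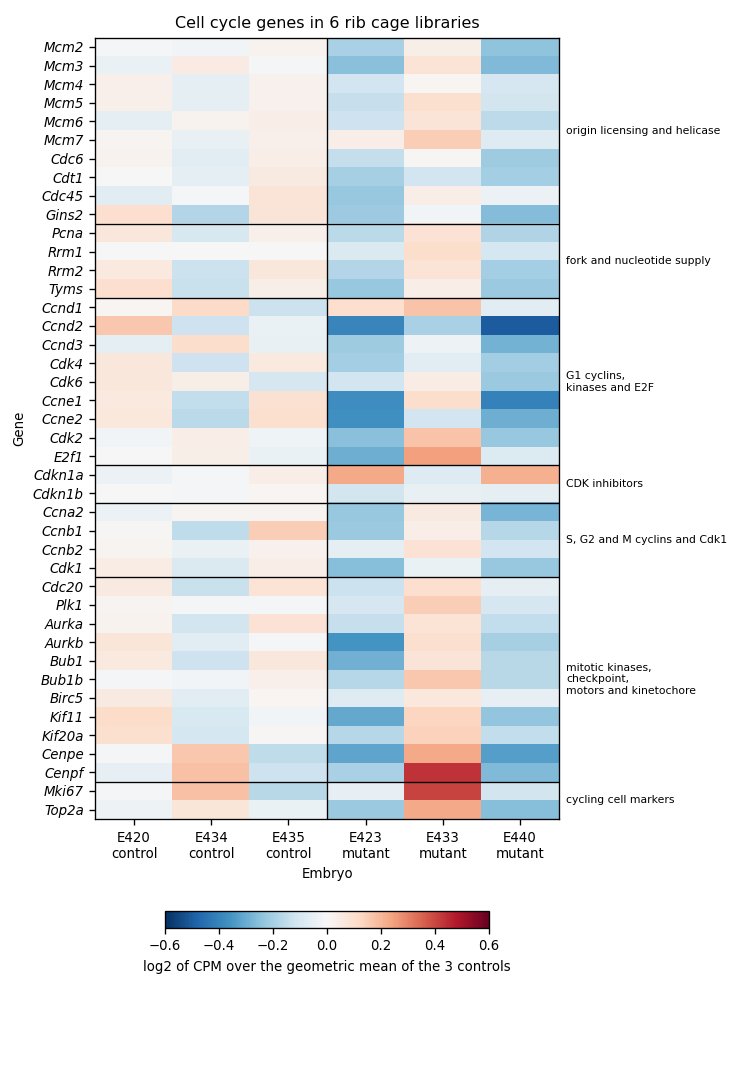
Log2 ratio of CPM to the geometric mean of the 3 controls for the 42 genes (rows, grouped by role) in the 6 libraries (columns), red above and blue below the controls. Mutants E423 and E440 are blue in most rows, mutant E433 is highest of all libraries in 26 rows, and Cdkn1a has the opposite signs.

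Origin licensing and helicase genes were close to the controls. Mcm2 to Mcm7 encode the 6 subunits of the replicative helicase, Cdc6 and Cdt1 load it in G1, and Cdc45 and Gins2 are subunits of its active form. The median log2 fold change of these 10 genes was -0.09, from -0.17 for Cdt1 to 0.04 for Mcm7. Cdt1 stood at 36.8, 35.2 and 38.0 CPM in E420, E434 and E435 (controls) against 31.9, 33.8 and 31.8 CPM in E423, E433 and E440. All mutants were below all controls, by 11.3% (log2 fold change -0.17 ± 0.07 SE, edgeR adjusted p 0.482). Mcm3 stood at 79.6, 84.5 and 81.2 CPM among controls against 68.7, 86.4 and 68.0 CPM among mutants. Its groups overlapped, with E433 the highest library and E423 and E440 the lowest. Mcm2 showed the same order, with 94.8, 94.0 and 96.6 CPM among controls against 83.1, 97.5 and 80.4 CPM among mutants. Mcm7 stood at 84.1, 80.7 and 85.1 CPM among controls against 85.6, 92.4 and 79.0 CPM among mutants, so that mutants held both its highest and its lowest value. Its transcribed region also holds the microRNA genes Mir25 and Mir93 in the same orientation, which together cover under 4% of its exons.

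Gins2 needs care. It stood at 29.1, 24.0 and 28.6 CPM among controls against 23.3, 26.8 and 22.7 CPM among mutants (log2 fold change -0.17 ± 0.12 SE, adjusted p 0.649 by edgeR). Of its exon bases, 67.3% overlap Gse1 on the opposite strand, and reads were counted without strand and left unassigned where 2 genes overlap. In the expected counts from RSEM, for which the use of strand is not given in the sources used here, its log2 fold change was 0.10, and it was the 1 gene of 42 whose sign differed between the 2 ways of counting. Overlaps on the opposite strand also covered 23.4% of the exon bases of Ccnd1 (LTO1), 29.3% of Kif20a (Cdc23) and 19.7% of Cdk4 (Tspan31).

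At the fork, Pcna is the sliding clamp of the DNA polymerases, Rrm1 and Rrm2 are the subunits of ribonucleotide reductase, and Tyms makes thymidylate. Their log2 fold changes lay between -0.13 (Tyms) and -0.03 (Rrm1), and all 4 groups overlapped. Pcna stood at 169, 151 and 165 CPM in E420, E434 and E435 (controls) against 145, 172 and 143 CPM in E423, E433 and E440. The control E434 lay nearer to the 2 low mutants than to E433. Rrm1 was the steadiest gene among controls, at 138 CPM in each, and stood at 130.0, 149 and 128 CPM among mutants. Tyms stood at 51.9, 44.1 and 49.6 CPM among controls against 41.3, 49.8 and 41.5 CPM among mutants.

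The cyclins of G1 held the largest differences. Ccnd2, cyclin D2 (chromosome 6, 127125162 to 127152193 on GRCm38), stood at 390.3, 320.2 and 339 CPM in E420, E434 and E435 (controls) against 265, 304 and 247 CPM in E423, E433 and E440 (mutants). Each mutant was below each control, E433 being nearest to them. Controls averaged 349.8 ± 36.3 CPM and mutants 272 ± 29.4 CPM (SD, n = 3 each), 22.3% lower by edgeR, with a log2 fold change of -0.36 ± 0.12 SE, a 95% interval from -0.65 to -0.08 and an adjusted p of 0.412. It was also the 1 gene with an unadjusted p under 0.05, 0.0206 in the same edgeR fit. Ccnd1, cyclin D1, is the paralogue that answers to many mitogens, and it did not share the order. It stood at 89.2, 96.1 and 81.2 CPM among controls against 94.9, 99.8 and 84.9 CPM among mutants, with overlapping groups and a 95% interval from -0.16 to 0.30. Ccnd3, cyclin D3, stood at 300.2, 336 and 303 CPM among controls against 269.6, 306 and 257 CPM among mutants (log2 fold change -0.17 ± 0.10 SE). Mutant E433 lay within its control range and the other mutants below it.

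Per unit of length, in TPM (the abundance that RSEM scales for transcript length), the ratio of Ccnd2 to Ccnd1 was 2.05, 1.67 and 1.88 in the controls and 1.37, 1.44 and 1.34 in the mutants. The groups did not overlap. An exact permutation test (two-sided) gave p = 0.1, the smallest that 3 against 3 libraries allow, and the ratio was chosen after the values of these genes were seen.

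The E-type cyclins, which activate Cdk2 at the start of S phase, were lower in E423 and E440. Ccne1 stood at 59.7, 51.7 and 61.1 CPM in E420, E434 and E435 (controls) against 44.2, 61.6 and 43.3 CPM in E423, E433 and E440 (mutants). Its highest and lowest values were both in mutants (log2 fold change -0.21 ± 0.16 SE, 95% interval -0.58 to 0.17). Ccne2 stood at 42.9, 36.8 and 44.0 CPM among controls against 31.9, 38.0 and 33.5 CPM among mutants (log2 fold change -0.26 ± 0.11 SE, edgeR adjusted p 0.473). Its groups overlapped only because E433 was above the control E434. Cdk2 itself stood at 74.3, 77.5 and 74.0 CPM among controls against 63.3, 84.6 and 64.2 CPM among mutants. The spread among its mutants, an SD of 12.1 CPM, was above the difference between the group means, 75.3 and 70.7 CPM. Cdk4, the partner of the D cyclins, stood at 315, 275 and 312 CPM among controls against 260.0, 287 and 259.6 CPM among mutants. Cdk6, the other partner of the D cyclins, had a log2 fold change of -0.10 and E2f1, the activating transcription factor, one of -0.03. For E2f1 the mutants spanned 25.1 to 36.5 CPM, and the controls lay between them at 29.9 to 31.5 CPM.

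The 2 inhibitors of the cyclin-dependent kinases did not share an order. Cdkn1a encodes p21, a target of p53 and of differentiation signals, and Cdkn1b encodes p27. Cdkn1a stood at 243, 247 and 256 CPM in E420, E434 and E435 (controls) against 291, 236 and 289 CPM in E423, E433 and E440 (mutants). In CPM, E423 and E440 were above all controls and E433 was below them, the reverse of the order of most of the other genes (log2 fold change 0.13 ± 0.10 SE, 95% interval -0.12 to 0.38). In TPM, E433 was above the controls as well. Cdkn1a stood there at 209.72, 216.27 and 216.46 TPM among controls against 230.64, 219.67 and 228.35 TPM in E423, E433 and E440. Cdkn1b stood at 64.2, 63.5 and 64.6 CPM among controls against 59.4, 62.2 and 61.6 CPM among mutants. All mutants were below all controls, by 4.72% (log2 fold change -0.07 ± 0.06 SE, adjusted p 0.724 by edgeR). In TPM the ratio of Cdkn1a to Cdk4 was 0.371, 0.428 and 0.392 in the controls and 0.524, 0.418 and 0.538 in the mutants, with an exact permutation p of 0.2 (two-sided). E423 and E440 were highest in this ratio and E433 lay within the controls.

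Cdk1, the kinase that starts mitosis, and its cyclins A2, B1 and B2 had log2 fold changes from -0.17 (Cdk1) to -0.03 (Ccnb2). Cdk1 stood at 102, 93.5 and 102 CPM among controls against 83.1, 96.4 and 84.6 CPM among mutants. E433 exceeded the lowest control, and the other mutants lay below all controls. Ccna2 stood at 93.4, 96.8 and 96.6 CPM among controls against 81.6, 99.2 and 78.8 CPM among mutants. Ccnb1 ranged from 49.8 to 61.4 CPM among controls against from 47.5 to 56.9 CPM among mutants. The B cyclins are degraded as cells leave mitosis, and the RNA of Ccnb2 ranged from 48.9 to 51.1 CPM among controls against from 46.4 to 53.4 CPM among mutants.

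Among the 11 mitotic genes, E433 was the highest library for 10. They comprise the kinases Plk1, Aurka and Aurkb, the spindle checkpoint kinases Bub1 and Bub1b, Cdc20, which activates the anaphase-promoting complex, Birc5 (survivin, of the chromosomal passenger complex), the spindle motors Kif11 and Kif20a, and the kinetochore proteins Cenpe and Cenpf. The median log2 fold change was -0.06, from -0.14 (Aurkb) to 0.02 (Cenpf). Aurkb stood at 50.1, 45.6 and 47.3 CPM in E420, E434 and E435 (controls) against 37.1, 51.0 and 41.5 CPM in E423, E433 and E440. Plk1 was nearly level in the controls, at 36.8, 36.0 and 36.2 CPM, and stood at 33.9, 40.2 and 33.9 CPM among mutants. Cenpf varied most of the 42 genes, at 74.4, 86.8 and 70.5 CPM among controls against 67.2, 104 and 64.0 CPM among mutants. Its coefficient of variation was 19.3%, and its 95% interval, -0.46 to 0.50, was the widest. Cenpe stood at 69.6, 78.4 and 63.1 CPM among controls against 56.3, 82.0 and 55.7 CPM among mutants. In both genes E433 was highest, E434 next and E440 lowest.

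Mki67 and Top2a, the usual markers of cycling cells, did not separate the groups. Mki67, the gene of the Ki-67 antigen (chromosome 7, 135689784 to 135716361), stood at 185, 211 and 166 CPM in E420, E434 and E435 (controls) against 180.0, 247 and 173 CPM in E423, E433 and E440 (mutants). Its highest library was a mutant and its lowest a control (log2 fold change 0.09 ± 0.16 SE, 95% interval -0.30 to 0.49). Top2a stood at 249, 268 and 248 CPM among controls against 219, 298 and 213 CPM among mutants (log2 fold change -0.07 ± 0.14 SE). Here too E433 was highest, and E423 and E440 were below all controls. In TPM the ratio of Mki67 to Pcna was 0.130, 0.169 and 0.120 in the controls and 0.146, 0.176 and 0.149 in the mutants (exact permutation p 0.4, two-sided).

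Several long transcripts were high in E434 and E433, but exon length ordered the genes only in part, and its role was not tested. The difference of E434 from the other 2 controls correlated with the log2 of exon length over the 42 genes (Pearson's r 0.53, Spearman's rho 0.46), and that of E433 from the other 2 mutants did so less (r 0.36, rho 0.23). These correlations are across genes, which share libraries and are not replicates, and over the 11138 genes with at least 10 CPM r was 0.13 and 0.18. Mki67, with 10061 exon bases, was 0.26 higher on the log2 scale in E434 than in the other controls, Cenpf with 15433 bases 0.26 and Cenpe with 8620 bases 0.24. The same difference was -0.26 for Gins2 (4097 bases), -0.24 for Ccne2 (3495 bases) and -0.20 for Cdc20 (1868 bases), but it was also -0.18 for Ccnd2 (9409 bases), -0.14 for Kif11 (7461 bases) and -0.0030 for Rrm1 (11012 bases). E433 exceeded the mean of the other mutants for 41 of 42 genes of any length, by 0.49 for the short Ccne1 (2662 bases) and by 0.43 for E2f1 (3154 bases).

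Between genes, levels were compared per length in TPM. Cdk4 had the highest median, 515 TPM (range over 6 libraries 425 to 565), followed by Ccnd3 at 300.0 (248 to 336), Cdkn1a at 218 (209.7 to 231), Pcna at 182 (153 to 209) and Cdk1 at 149 (115 to 166). The ranges of Cdk4, Ccnd3, Cdkn1a and Pcna did not overlap, and those of Pcna and Cdk1 did. The 6 helicase subunits lay close together, with medians from 33.1 TPM (Mcm4) to 60.0 TPM (Mcm7). Mki67 had a median of 24.2 TPM (22.4 to 36.7). The lowest were Cdk6 at 5.77 TPM (4.52 to 7.25), Cdc6 at 8.75 TPM (6.97 to 9.40), Cenpf at 9.49 TPM (7.47 to 14.5) and Cenpe at 12.3 TPM (9.01 to 15.5), each range overlapping the next.

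**Figure D3:**
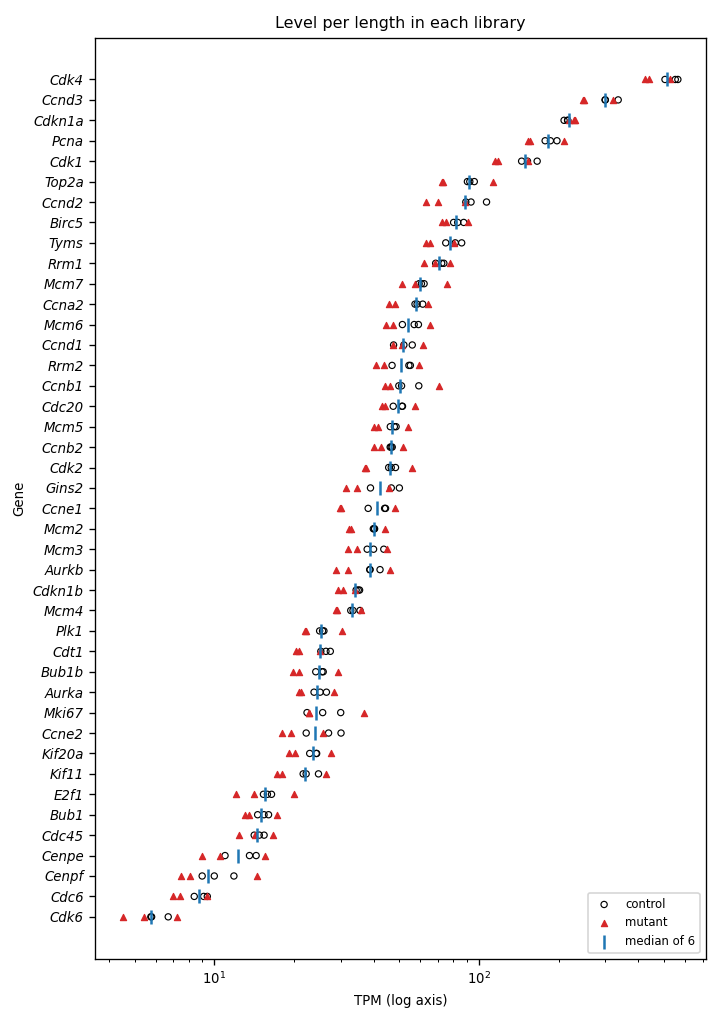
TPM (x axis, log scale) of the 42 genes (y axis, sorted by median) in each library, with open circles for the 3 controls, red triangles for the 3 mutants and a blue bar at the median of 6. The G1 kinase Cdk4 is highest at 515 TPM and its counterpart Cdk6 lowest at 5.77 TPM. For 30 of 42 genes the highest and the lowest TPM are both among the mutants, in different embryos. TPM, unlike CPM, were not rescaled between libraries by TMM.

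The count of genes that passed depended on which libraries were kept. Without mutant E433, edgeR called 6 of 42 genes lower (14.3%), against 6.18% of all genes, namely Ccnd2, Ccne1, Mcm3, Ccna2, Cdk2 and Mcm2. Without E434 and E433 it called 30 of 42 lower (71.4%), against 18.3% of all genes, and 1 higher, Cdkn1a, against 19.4%. These shares are not like for like. All 42 genes had a mean of at least 10 CPM over the 6 libraries, against 41.9% of all genes tested, many of which have fewer counts. The lower ones comprised 8 of 10 licensing and helicase genes, 3 of 4 fork genes, 6 of 9 G1 cyclins, kinases and E2F, 3 of 4 of Cdk1 and its cyclins, 9 of 11 mitotic genes and 1 of 2 cycling cell markers. Ccnd2 was then 29.8% lower (log2 fold change -0.51 ± 0.05 SE), Ccne1 27.4% lower (-0.46 ± 0.06 SE), Ccne2 24.6% lower (-0.41 ± 0.06 SE) and Cdkn1a 16.2% higher (0.22 ± 0.04 SE). Mki67 was at 0.01. The median over the 42 genes was -0.20, against -0.0040 over all genes. This fit compares 2 close pairs of libraries, whose small spread sets its p-values. With each close pair summed to 1 library and E434 and E433 kept, edgeR called 0 of 42 genes, the median was -0.04 and 29 of 42 were lower.

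Other genes of the cell cycle followed the 42. A list of 106 further genes of replication (36), G1 control (19) and mitosis (51) was tested in the same fit. None passed, 83 were lower and 23 higher, the median log2 fold change was -0.07, and 4 had an unadjusted p under 0.05 (3.77%, below the 10.6% of all genes). The library medians of the mutants were -0.16 (E423), 0.08 (E433) and -0.17 (E440). Lowest of the list were Skp2 (-0.36 ± 0.15 SE), the F-box protein that marks p27 for degradation, Cdkn1c (-0.33 ± 0.16 SE), which encodes the inhibitor p57, and Gins3 (-0.29 ± 0.14 SE). Skp2 stood at 78.9, 77.9 and 80.4 CPM among controls against 55.5, 76.4 and 53.1 CPM among mutants. Cdkn1c stood at 1294, 1385 and 1373 CPM among controls against 943, 1329.6 and 948 CPM among mutants. For both, E433 lay close to or within the controls and the other mutants far below them. Highest were the inhibitors Cdkn2b (0.63 ± 0.85 SE), at under 6 CPM in each library, and Cdkn2c (0.27 ± 0.10 SE), and the spindle checkpoint kinase Ttk (0.11 ± 0.11 SE). Cdkn2c, which encodes p18, stood at 29.7, 35.9 and 29.6 CPM among controls against 37.3, 37.0 and 40.7 CPM among mutants, all mutants being above all controls (edgeR adjusted p 0.446). Groups did not overlap for 5 genes below (4.72%) and 1 above, fewer than the 8.21% and 6.81% of all genes. Without E434 and E433, 73 of the 106 were called lower (68.9%) and 5 higher, against 18.3% and 19.4% of all genes, many of which have fewer counts.

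The make-up of the libraries differed as well. Some marker lists followed the order of the 42 genes in E423 and E440 and others did not, and the part of make-up in these values was not tested. Of 13 early chondrocyte markers, 13 were highest in E434, and their summed level was 2126, 27566 and 2021 CPM in E420, E434 and E435 (controls) against 733, 10268 and 709 CPM in E423, E433 and E440. E434 and E433 were thus the libraries with the highest chondrocyte marker sums. In the 42 genes they lay on opposite sides of the control mean, with median log2 ratios of -0.05 in E434 and 0.08 in E433. With the chondrocyte score as a covariate, 0 of 42 genes were called and 31 were lower. Erythroid markers (9 genes) summed to between 22589 and 27791 CPM among controls against to 9370, 18222 and 9514 CPM in E423, E433 and E440, and 5 of 9 were below all controls in all mutants. The erythroid sum was lowest in the libraries in which most of the 42 genes were lowest. In E433 the erythroid sum was also below all controls, whereas the 42 genes there summed to 4216 CPM, above all controls. Macrophage markers (7 genes) summed to between 251 and 263 CPM among controls against 216, 239 and 215 CPM among mutants, in the same order. The 8 osteoblast markers, all lower in the mutants, summed to between 11504 and 16626 CPM in controls and between 7986 and 8378 CPM in mutants. Col1a1 made up most of these sums, and E433 was the lowest library for 6 of the 8, among them Spp1, at 27.3 CPM against 119 and 124 CPM in E423 and E440. Skeletal muscle markers (8 genes) summed to between 14656 and 23791 CPM among controls against 33325, 18452 and 32595 CPM among mutants. Keratinocyte markers (9 genes) summed to 5242, 18.3 and 6086 CPM among controls against 27669, 3163 and 27806 CPM among mutants. Both were highest in E423 and E440. The 9 hepatocyte markers were all highest in E433, with a sum of 649 CPM against 30.8 to 51.4 CPM in the other libraries. Thymocyte markers (8 genes) summed to 2.82 to 3.08 CPM among controls against 3.64 to 5.17 CPM among mutants, with Cd8a at 0 in all 3 controls and Rag2 at 0 in 5 of 6 libraries.

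**Figure D4:**
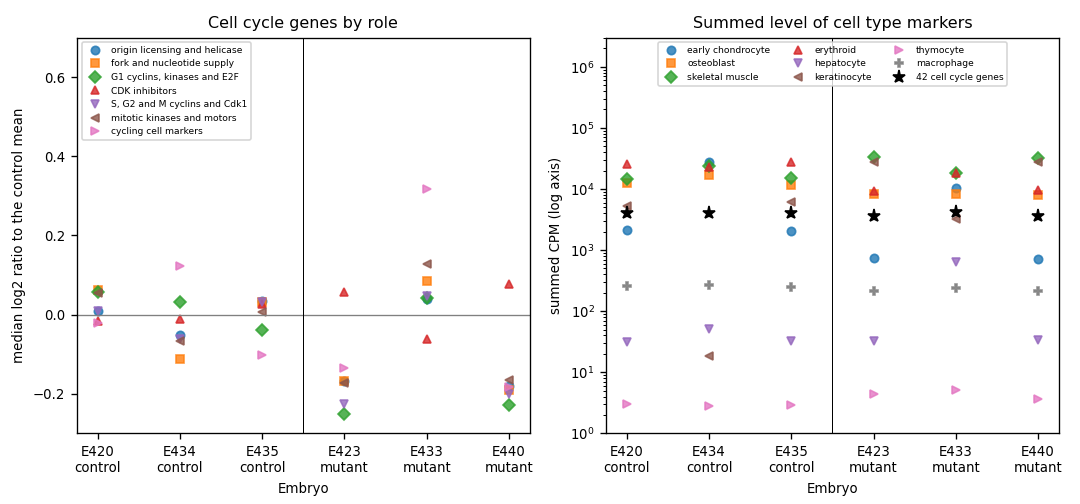
Left, median log2 ratio to the control mean (y axis) of the 7 role groups of the 42 genes in each library (x axis), and right, summed CPM (log axis) of 8 lists of cell type markers and of the 42 genes. In E423 and E440 the medians of 6 of the 7 role groups lie below the controls. That of the cycling cell markers does so through Top2a, while Mki67 is within the control range. The median of the 2 inhibitors lies above the controls through Cdkn1a, while Cdkn1b is below all controls. The same libraries have the lowest erythroid and the highest keratinocyte sums.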

How the data were processed

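Rib cage RNA was sequenced by the authors from poly(A)-selected stranded libraries (paired ends, Illumina). The authors aligned reads to GRCm38 with HISAT2 2.1.0 and deposited raw counts per gene from featureCounts 1.6.0 on GENCODE exons, with primary alignments only, read ends counted singly and strand not used. The authors also deposited expected counts and TPM from STAR 2.7.6 and RSEM 1.2.31. Their comparison tables (DESeq2 1.26.0 fold changes and p-values, with 12 further columns of per-sample values) were not used. Symbols came from an older GENCODE release on the same build, and sequences from RefSeq.

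Groups followed the labels. The 26596 genes with at least 10 counts in all entered an unpaired quasi-likelihood fit in edgeR 4.0.16 (R 4.3.3) after TMM scaling, with Benjamini-Hochberg adjustment over all of them and a limit of 0.1 on the adjusted p. The script was tested on simulated data. Alternatives were DESeq2 1.42.0, its size factors, other filters, robust fitting, rounded expected counts, a chondrocyte covariate, leaving out libraries and, added after seeing the data, summed close pairs. The 42 genes, the further lists and the naming rule (for the 106 further genes, the 3 lowest and 3 highest by fold change with a mean of at least 1 CPM) were chosen with earlier results of these data known. CPM were divided by TMM-scaled library sizes, and 1 count equals 0.0206 to 0.0255 CPM.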

Additional observations from a re-analysis of the deposited data

How the results depend on the processing

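With 6 libraries, 0 of the 42 genes and 0 of the 106 further genes were called under DESeq2, its size factors, robust fitting, both other filters, expected counts, the chondrocyte covariate and either stricter threshold, and also with the close pairs summed. Without E434 and E433, 31 of the 42 and 78 of the 106 were called and the median of the 42 was -0.20. Leaving out 1 library gave 0 to 6 of the 42 and 0 to 21 of the 106, the upper values without mutant E433 and 0 without any other. Over all genes the count of 24 became 950 with DESeq2, 54 with robust fitting, 48 without a filter, 482 with the covariate, 9425 without E434 and E433, 0 at an adjusted p under 0.05 and 0 with the pairs summed (769 genes then had an unadjusted p under 0.05), and 0 to 3463 when 1 library was left out. The value 0 came without E420, E435, E423 or E440 (1450 to 1698 genes with an unadjusted p under 0.05) and 3463 without E433.

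Signs turned for 15 of the 42 genes, and of the turned values only that of Cenpf without E434 and E433 passed the threshold. Expected counts gave 0.10 for Gins2. The covariate gave 0.012 for Rrm1, 0.059 for E2f1, 0.031 for Plk1, 0.0030 for Bub1b, 0.016 for Cenpe and 0.032 for Top2a. Without E434 and E433, Mcm7 was at -0.038 and Cenpf at -0.14. With the pairs summed, Rrm1 was at 0.0046, E2f1 at 0.038, Ccnb2 at 0.0066, Cdc20 at 0.033, Plk1 at 0.028, Bub1b at 0.0029, Birc5 at 0.014 and Kif20a at 0.019. Leaving out 1 library gave ranges of -0.013 to 0.096 for Mcm7, -0.12 to 0.0033 for Cdc45, -0.091 to 0.013 for Rrm1, -0.18 to 0.092 for E2f1, -0.084 to 0.015 for Ccnb2, -0.093 to 0.020 for Cdc20, -0.10 to 0.030 for Plk1, -0.17 to 0.0054 for Bub1b, -0.060 to 0.0077 for Birc5, -0.23 to 0.15 for Cenpf, -0.083 to 0.19 for Mki67 and -0.23 to 0.020 for Top2a. The cause of these turns was not tested.

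Each of the 42 genes had at least 713 counts in each library. E434 and E433 differ from the other libraries of their groups in cartilage markers and, E433 more than E434, in these genes. A fit without them therefore changes both at once. No paired analysis was possible because the labels carry embryo numbers only, with no number shared between groups and no litter, and replicates were numbered in accession order.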
